A study of Mus musculus with 14 samples.

Results

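The 3' ends of 2 fibrillar collagen mRNAs, Col1a2 and Col3a1, were followed in 3T3 cells, a mouse fibroblast line, through a block of transcription and across a sucrose gradient. The members were the poly(A) sites, where an mRNA is cut and its tail added, that fell in a fixed window on the plus strand of mm9 chromosome 6 around Col1a2 or of chromosome 1 around Col3a1. These windows held 6 of the 33590 sites measured, 3 per gene, so neither window was without a site. The gene names rest on the windows, since no table used here pairs mm9 sites with genes. The study asked how the choice of 3' end relates to mRNA stability and to ribosome load. The 12 libraries analysed were made by 2P-Seq, which primes on the poly(A) tail and reads into the mRNA from its 3' end. They came from 2 controls, from cells given actinomycin D at 10 µg/ml for 1, 2, 4 or 8 h (1 library each), and from 6 fractions of 1 sucrose gradient. All 12 came from the same cell line, and the labels name no genotype or other treatment. Fractions are named here by the number in their column name, 0, 1, 2.5, 4.5, 7.5 or 12, which the authors' ribosomes-per-mRNA value uses as ribosome number.

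Fibrillar collagens are the rope-like proteins that give connective tissue its tensile strength. Col1a2 encodes the α2 chain of type I collagen, which joins a pair of α1 chains in each triple helix, and Col3a1 encodes the α1 chain of type III collagen, a homotrimer found with type I collagen in skin, vessels and healing wounds. Both chains are made on ribosomes bound to the endoplasmic reticulum, from long mRNAs that fibroblasts hold at high levels. Many mouse genes end their mRNA at more than 1 place, which changes how much 3' untranslated region (UTR) the mRNA carries, and thus which sites for microRNAs and RNA-binding proteins it can hold. Collagen mRNAs are a textbook target of the miR-29 family, whose members share 1 seed, the bases that pair first with a target. Actinomycin D blocks transcription, so existing mRNAs decay without replacement.

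The sequences behind that relation are shown because the 3' end decides whether an mRNA holds such a stretch. The mature miR-29 sequences are from RefSeq (GRCm38.p6), 5' to 3', with the seed, bases 2 to 8, in capitals.
mmu-miR-29a-3p: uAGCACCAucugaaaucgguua
mmu-miR-29b-3p: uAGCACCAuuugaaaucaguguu
mmu-miR-29c-3p: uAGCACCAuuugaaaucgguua
The windows below are from the longest coding transcript of each gene in the basic set of GENCODE M21 (GRCm38, plus strand), 5' to 3'. Letters that match one of the motifs given below, TGGTGCT or GGTGCTA, are in capitals. TGGTGCT is the complement of the seed. GGTGCTA drops its first letter and adds an A opposite base 1 of the microRNA.
Col1a2, chr6:4541163-4541192: tgcttgcaacacaaaGGTGCTAattagtag
Col3a1, chr1:45348967-45348996: ttcaaaatgtctcaaTGGTGCTAtaataaa
Col3a1, chr1:45349404-45349433: aaagacacatgttaaGGTGCTAatgtattt

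In GRCm38, this Col1a2 transcript spans chromosome 6 from 4505493 to 4541544 with 52 exons, 1372 codons and an annotated 3' UTR of 882 nt. That of Col3a1 spans chromosome 1 from 45311538 to 45349706 with 51 exons, 1464 codons and a 3' UTR of 959 nt. Motifs were searched on the mRNA strand only. TGGTGCT, which pairs with the whole seed, was absent from the Col1a2 UTR and occurred once in that of Col3a1, 235 nt after the stop codon. GGTGCTA, which pairs with bases 2 to 7 followed by an A, was found at 516 nt in Col1a2, and at 236 and 672 nt in Col3a1, the first of these overlapping the TGGTGCT match. Among stretches of the same length after the stop codon of genes, TGGTGCT occurred in 8.96% (882 nt) and 9.77% (959 nt), and GGTGCTA in 4.26% and 4.69%. These stretches came from the longest such transcript of each gene whose 3' UTR was long enough. The poly(A) signal AATAAA lay at 302, 316, 321, 824, 838 and 843 nt in Col1a2 and at 244, 248, 816 and 938 nt in Col3a1, and 40.9% and 43.1% of stretches of those lengths held it. ATTTA, the AU-rich pentamer, was absent from the Col1a2 UTR and lay at 101 and 691 nt in that of Col3a1, with shares of 69.2% and 71.8%. A match is a description of letters. The mm9 ends below were not placed on these GRCm38 transcripts, and no microRNA was measured.

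Each gene used 3 ends in 3T3 cells, called proximal, middle and distal by their order along the mRNA. For Col1a2 they lay at mm9 chromosome 6 positions 4490965, 4491008 and 4491495, so that the proximal and middle ends were only 43 nt apart and the distal end was 487 nt past the middle one. For Col3a1 they lay at chromosome 1 positions 45405765, 45405862 and 45406531, with gaps of 97 and 669 nt. Of 17807 loci (ends on 1 strand within 2000 nt of the next), 7666 had more than 1 end and 1870 had 3. All 6 ends passed the authors' filter, as did 17970 of the 33590 sites.

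Col1a2 was the more abundant of the mRNAs. A 2P-Seq read marks the end of 1 mRNA, so levels were compared as CPM (a library's counts scaled to a common total) without dividing by length. Col1a2 stood at 2939 and 3102 CPM in the controls, and Col3a1 at 959 and 842 CPM. In both genes the middle end carried most reads. The Col1a2 middle end held 11406 and 16005 control reads and ranked 30 of the 33590 sites by mean control CPM (2220 CPM). Its proximal end held 4092 and 2688 reads (rank 223), and its distal end 1676 and 1261 (rank 672). The middle end of Col3a1 held 5384 and 5181 reads (rank 111). Its proximal and distal ends were minor, with 121 and 89 reads (rank 8036) and 101 and 146 reads (rank 7430), that is, 2.16% and 1.64%, and 1.80% and 2.70%, of the gene's reads. The controls differed by 0.71, -0.39 and 0.51 on the log2 scale (control 1 minus control 2, scaled as below) for the proximal, middle and distal Col1a2 ends. The corresponding Col3a1 differences were 0.55, 0.16 and -0.43. The same difference had an SD of 0.31 over the 300 most abundant ends. Of the ends among those 300, the Col1a2 proximal and middle ends differed by more than that SD and the Col3a1 middle end by less. The other ends also differed by more, but they rank below the 300. Counting error is larger at their lower counts, so that SD is not a measure for them.

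The libraries held 5843403 and 6433503 counts (controls), 6111232, 5858649, 5048797 and 4045420 counts (1, 2, 4 and 8 h) and 1663346 to 11575417 counts (fractions). The labels do not say whether the controls were separate cultures, and every time and fraction is 1 library, so p-values describe the scatter of these libraries about a line. Intervals of shares (Wilson, 95%) cover counting error only, not the spread between libraries. They treat reads as independent molecules, which PCR copies are not, so they may be too narrow even for that error. RNA was extracted in bulk, so fewer cells with an mRNA and less of it per cell cannot be told apart. Marker genes of fibroblasts could not be looked up by name, so the cell type label was not checked beyond the high collagen counts.

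The mRNAs of these genes behaved differently after actinomycin D. Counts were divided by the factor that the file header gives for each library, and are called scaled reads. Col1a2 had 18437 and 19954 scaled reads in the controls, then 17472, 14844, 17684 and 18807 at 1, 2, 4 and 8 h. The 1, 2 and 4 h libraries were below both controls, the 2 h library most (77.3% of their mean), while the 8 h library lay between the controls (97.98%). Col3a1 had 6018 and 5416 scaled reads in the controls, then 3652, 2535, 1761 and 922. Every treated library was below both controls and below the library before it in time, with 63.9, 44.3, 30.8 and 16.1% of the control mean left. The loss of Col3a1 was steepest early, at -0.65 and -0.53 (log2 per hour) in the first and second hour against -0.26 from 2 to 4 h and -0.23 from 4 to 8 h.

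**Figure D1:**
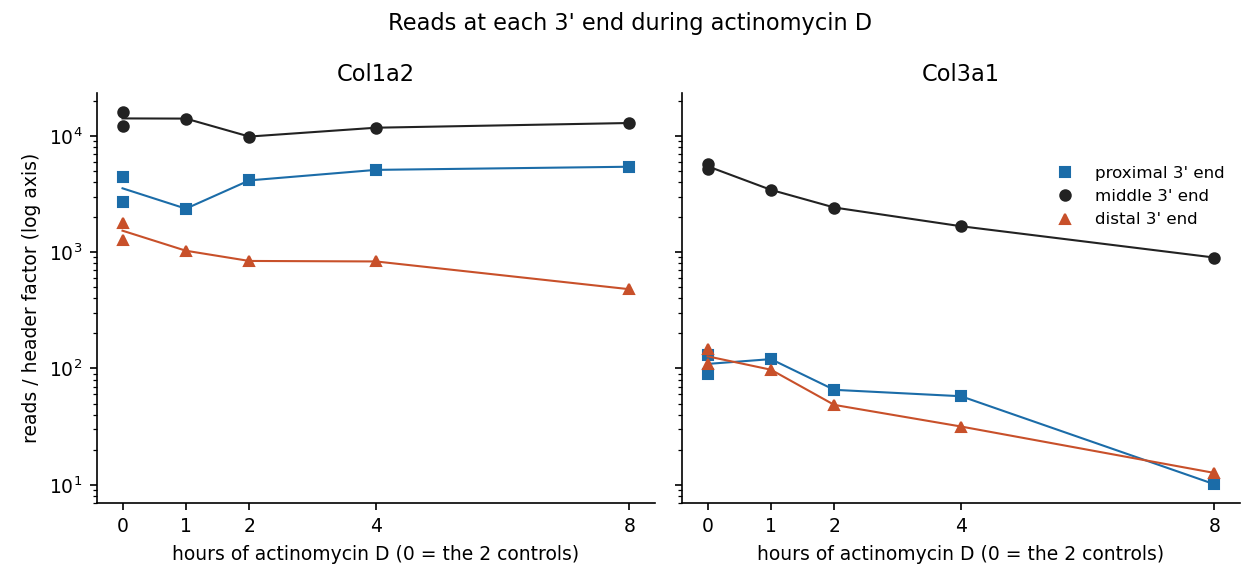
Scaled reads (log axis) at each 3' end against hours of actinomycin D, with both controls drawn at 0 h and lines through the means. The Col1a2 middle end stays near its control level, while the Col3a1 middle end falls from 5780 and 5181 in the controls to 899 at 8 h.

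A slope on hours was fitted to the counts of the 6 libraries with edgeR, with Benjamini-Hochberg adjustment over 10734 loci or 16913 ends and a call at an adjusted p under 0.05. The slope of Col3a1 was -0.33 ± 0.035 (SE) log2 per hour (edgeR adjusted p = 3.75e-05), a fall. Falls were called at 60% of loci and rises at 2.41%, so a called fall was the common result. Col1a2 had a slope of 0.00057 ± 0.027 (95% interval -0.058 to 0.059, edgeR adjusted p = 0.987), against a median of -0.20 over all loci. Its slope was above that of 85.3% of loci, and that of Col3a1 above 32.3%. The header factors set the zero of this scale. With TMM scaling, which centres the loci (median -0.035), Col1a2 rose at 0.16 per hour (edgeR adjusted p = 9.38e-04) and Col3a1 fell at -0.17 (adjusted p = 0.00252), with percentiles of 85.2 and 32.0.

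The ratio of the genes within a library does not depend on that scaling. Per 100 Col1a2 reads there were 32.6 and 27.1 Col3a1 reads in the controls and 20.9, 17.1, 9.96 and 4.90 at 1, 2, 4 and 8 h, lower at each later time. The log2 ratio fell by 0.33 per hour (two-sided exact permutation p = 0.00278 over 720 pairings, the smallest these libraries can give). Leaving out 1 library at a time gave slopes of -0.39 to -0.31 (exact p of 0.00833 to 0.0167), and the middle ends alone gave -0.31 (exact p = 0.00556).

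All 3 Col3a1 ends fell. The middle end had 5780 and 5181 scaled reads in the controls and 3434, 2421, 1671 and 899 at 1, 2, 4 and 8 h. Its slope was -0.32 ± 0.036 per hour (edgeR adjusted p = 1.85e-05). The proximal end went from 130 and 89.0 scaled reads to 120, 65.5, 57.7 and 10.1, so that its 1 h library lay between the controls and its 8 h library rested on 8 reads. Falls were called at 52.7% of ends and rises at 2.71%. The proximal slope was -0.39 ± 0.074 (edgeR adjusted p = 6.10e-04), but leaving out the 8 h library gave -0.26, which was not called (adjusted p = 0.0766). The distal end, which gives the longest mRNA, went from 108 and 146 scaled reads to 97.6, 48.6, 31.7 and 12.6 (10 reads), below both controls at every time. Its slope was -0.44 ± 0.066 (edgeR adjusted p = 1.33e-04).

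Differences between ends of 1 gene were tested within libraries against the most abundant end, the middle one in both genes. This test called 3.68% of 6385 pairs of ends, 1.53% with the other end falling faster and 2.15% with it falling more slowly. For Col3a1 the proximal end differed from the middle end by -0.037 per hour ± 0.078 (95% interval -0.22 to 0.14, edgeR adjusted p = 0.830) and the distal end by -0.094 ± 0.052 (-0.21 to 0.025, adjusted p = 0.324). Neither passed, and the proximal and distal ends held 442 and 421 reads over the 6 libraries. The direction of the proximal difference rested on the 8 h library, without which it was 0.19 (edgeR adjusted p = 0.400).

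**Figure D2:**
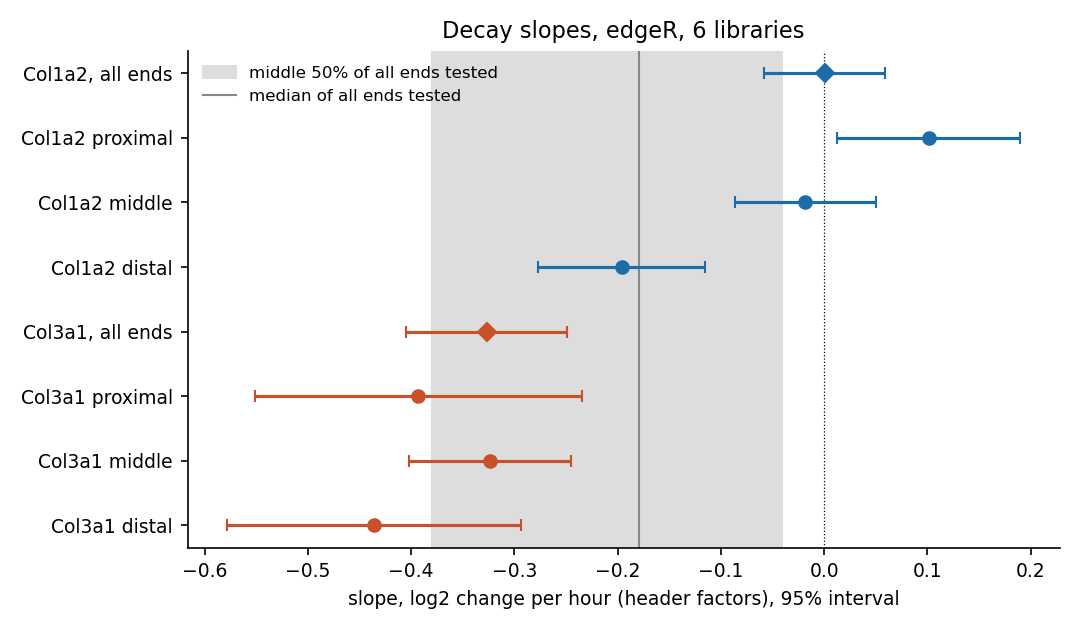
Fitted slope of each gene (diamonds) and 3' end (circles) in log2 per hour of actinomycin D, with 95% intervals from edgeR over 6 libraries. The grey band holds the middle 50% of all ends tested, the grey line is their median (-0.18), and the Col1a2 middle and distal ends sit at -0.018 and -0.20.

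The ends of Col1a2 spread more widely. The middle end had 12245 and 16005 scaled reads in the controls and 14076, 9862, 11751 and 12899 at 1, 2, 4 and 8 h. Only the 2 and 4 h libraries were below both controls, and 91.3% was left at 8 h (slope -0.018 ± 0.032, edgeR adjusted p = 0.647). The distal end had 1799 and 1261 scaled reads, then 1029, 840, 832 and 480, below both controls at every time, with 31.4% left at 8 h. Its slope was -0.20 ± 0.037 (edgeR adjusted p = 6.97e-04), close to the median end at -0.18. With TMM scaling it was -0.046 and not called (adjusted p = 0.351), as the median end moved to -0.027. The proximal end had 4393 and 2688 scaled reads, then 2366, 4141, 5100 and 5427. Its 4 and 8 h libraries were above both controls, and its slope of 0.10 ± 0.041 missed the threshold (edgeR adjusted p = 0.0512). Without control 1 it was 0.14 and with TMM scaling 0.25, both called as rises (adjusted p of 0.00994 and 0.00164).

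Within libraries the distal share of Col1a2 reads was 9.76% (95% interval 9.32 to 10.2) and 6.32% (5.99 to 6.67) in the controls. After actinomycin D it was 5.89% at 1 h, 5.66% at 2 h, 4.71% at 4 h and 2.55% (2.31 to 2.82) at 8 h. All 4 treated libraries lay below both controls, with the 8 h library lowest. The gradient libraries, whose labels name no actinomycin D, were below both controls too (3.78 to 5.97%). A share below both controls was thus not particular to treatment. Of the treated libraries, only that of 8 h lay below the gradient range. Against the middle end the distal end differed by -0.17 ± 0.047 per hour (95% interval -0.28 to -0.068), which missed the threshold after adjustment over all pairs (edgeR adjusted p = 0.072). Set against the sum of both other ends it differed by -0.20 (edgeR adjusted p = 0.0292), and DESeq2 called the difference from the middle end at -0.17 (adjusted p = 0.0375). The call thus depended on the reference end and the tool, while the direction was the same in all 9 alternatives tried.

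The proximal and middle Col1a2 ends, 43 nt apart, split their reads differently even between the controls. The proximal share was 23.8% and 13.5% in the controls, then 13.5, 27.9, 28.8 and 28.9% at 1, 2, 4 and 8 h. Control 2 and the 1 h library were alike and low, and the other 4 libraries were high. The log2 ratio of proximal to middle reads differed by 1.09 between the controls. In a comparison chosen after the values were seen, 271 other pairs of consecutive ends 30 to 60 nt apart, with at least 20 counts in each library, had a median control difference of 0.071 (SD 0.47), and 3.32% differed by as much or more. Those pairs were not matched in depth to these Col1a2 ends, which held 2688 to 16005 control reads. The proximal end's decay difference from the middle end, 0.12 per hour ± 0.067 (95% interval -0.029 to 0.28), did not pass (edgeR adjusted p = 0.314). Leaving out 1 library at a time moved it from 0.083 (without control 2) to 0.25 (without 8 h), with no call. The part of this library pattern in the proximal slope was not tested.

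**Figure D3:**
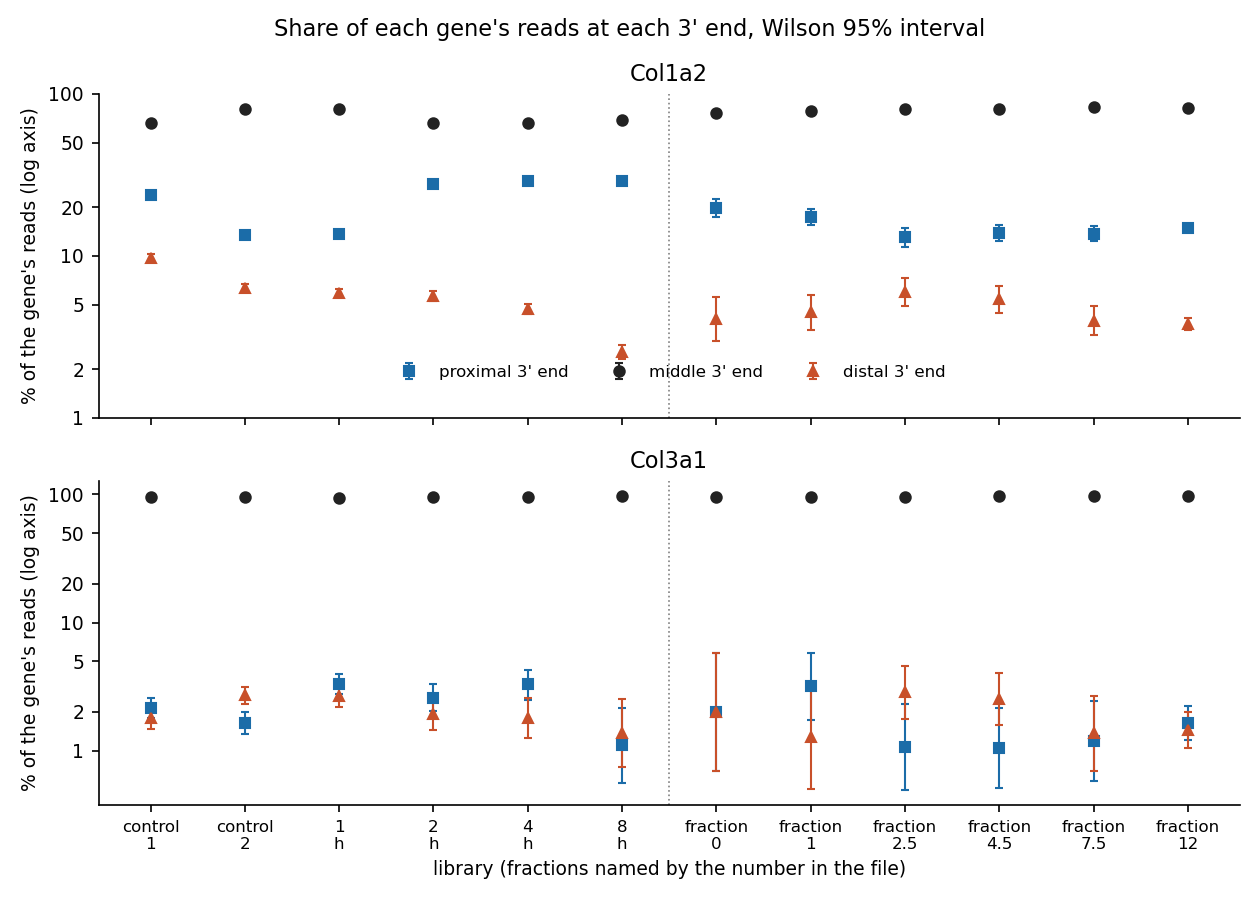
Share of each gene's reads at its proximal, middle and distal 3' end (log axis) in each of the 12 libraries, with Wilson 95% intervals. The Col1a2 distal share falls from 9.76 and 6.32% in the controls to 2.55% at 8 h, and the Col1a2 proximal share is low in control 2 and at 1 h (13.5%).

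The authors' deposited table gives a half-life per end, taken here in hours, since its unit is not stated. In the authors' deposited table the Col1a2 ends have 20.2 (proximal), 6.05 (middle) and 2.61 (distal), and the Col3a1 ends 2.25, 1.60 and 1.47. The order falls from proximal to distal in both genes. For Col3a1 the fitted slopes order the proximal and middle ends the other way (-0.39 and -0.32 per hour), as do the shares left at 8 h (9.24% and 16.4%). For 6 of 6 ends the rate behind the value equalled that of an exponential fit to the scaled counts plus 0.1 per hour, within 0.001. The fitted rate of the Col1a2 proximal end was -0.066 per hour, a rise, so its 20.2 does not describe a loss of reads. The median in the authors' deposited table is 2.88 over ends that passed the filter (middle 50% from 1.59 to 5.02) and 6.67 over the 300 most abundant ends (4.61 to 9.71). By this value the Col1a2 middle end was near other abundant ends. The Col3a1 middle end, also among the 300, was below their lower quartile. Before the added 0.1, the fitted rate of the Col1a2 middle end was 0.015 per hour. Its 6.05 thus rests mostly on the added term, and 91.3% of its scaled reads were left at 8 h. Whether the values of other ends, and so the median of 6.67, hold the same term was not checked.

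Across the gradient, each mRNA had more reads in the heaviest fraction than in any other. Both genes were lower in every fraction than in the controls. Col1a2 stood at 204 to 1104 CPM in the fractions, against 2939 and 3102 CPM in the controls. Col3a1 stood at 56.1 to 221 CPM, against 959 and 842 CPM. The cause of this lower level was not tested, and the shares and ribosome numbers below describe only the reads found in the fractions. Heavier fractions hold mRNAs with more ribosomes, and long coding regions can carry many. As scaled reads, 57.9% of Col1a2 lay in fraction 12, with 7.27, 6.88, 10.6, 8.73 and 8.64% in fractions 0, 1, 2.5, 4.5 and 7.5. For Col3a1 48.6% lay in fraction 12, with 4.86, 6.91, 17.1, 13.02 and 9.47% in the lighter ones. Over all 33590 ends the share in fraction 12 was 24.0%. The share of Col1a2 was above that of 95.02% of 11135 loci, and that of Col3a1 above 86.6%. As CPM, which removes the header factors, fraction 12 held 42.2% of Col1a2 and 36.9% of Col3a1.

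**Figure D4:**
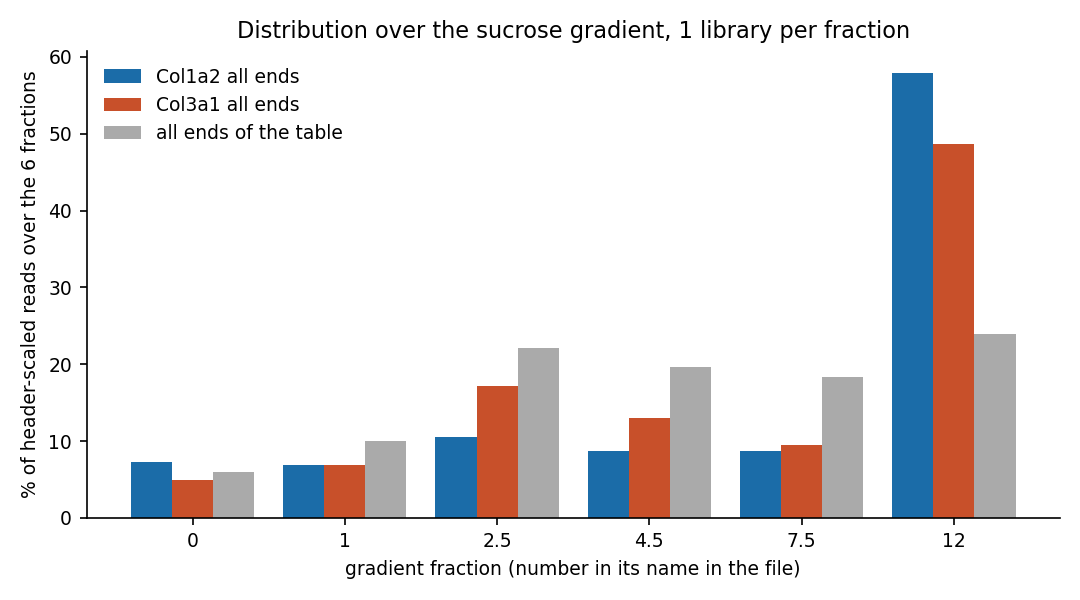
Percent of scaled reads in each of the 6 sucrose gradient fractions for Col1a2, Col3a1 and all 33590 ends together (1 library per fraction, no error bars). Fraction 12 holds 57.9% of Col1a2 and 48.6% of Col3a1 reads against 24.0% of all reads.

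The profiles were not straight lines over the fractions. Col1a2 stood at 561, 314, 218, 204, 215 and 1104 CPM in fractions 0, 1, 2.5, 4.5, 7.5 and 12, high at both ends and low between. Col3a1 stood at 89.6, 75.2, 84.3, 72.5, 56.1 and 221 CPM, and only fraction 12 stood out. A slope on fraction rank with TMM scaling, adjusted over 11135 loci, called 4.87% of loci as falling and 0.53% as rising. It called neither Col1a2 (0.037 ± 0.18 per rank, 95% interval -0.32 to 0.39, edgeR adjusted p = 0.928) nor Col3a1 (0.080 ± 0.16, -0.25 to 0.41, adjusted p = 0.824). The median locus was at 0.046. These slopes rested on the outer fractions: without fraction 12 they were -0.45 and -0.25, and without fraction 0 they were 0.32 and 0.21, none called (edgeR adjusted p of 0.180, 0.361, 0.331 and 0.476). With the header factors the median locus moved to 0.50, and the slopes of 0.53 for Col1a2 and 0.55 for Col3a1 were called (edgeR adjusted p of 0.0376 and 0.0333).

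The ratio of Col3a1 to Col1a2 was highest in the middle of the gradient. Its log2 value was -2.64, -2.06, -1.37, -1.49, -1.93 and -2.32 in fractions 0, 1, 2.5, 4.5, 7.5 and 12. Its slope on rank was 0.053 (two-sided exact permutation p = 0.664 over 720 pairings), so no straight trend was shown. Without fraction 0 the slope was -0.11 (exact permutation p = 0.45).

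The mean ribosome number per mRNA, weighted by scaled reads, was 8.32 for Col1a2 and 7.63 for Col3a1, against a median of 6.38 over ends that passed the filter (middle 50% from 5.23 to 7.46). It cannot exceed 12, the number of the last fraction. Among the ends of Col1a2 it was 8.13 (proximal), 8.39 (middle) and 7.75 (distal), and among those of Col3a1 7.57, 7.65 and 6.64. For 6 of 6 ends this equalled the value in the authors' deposited table within 1e-06. The distal end was lowest in both genes with this weighting, but not under others. By CPM the Col1a2 proximal end was lower (5.86) than the distal one (5.94), and without fraction 12 the proximal end was lowest in both genes (2.96 for Col1a2 and 2.85 for Col3a1). Counting error alone was ± 1.17 for the Col3a1 proximal end and ± 0.996 for its distal end (95%). The scaled values exceeded those of 87.2, 90.7 and 80.7% of ends for Col1a2 and of 77.3, 78.9 and 56.3% for Col3a1. Weighted by CPM they were 6.36 and 6.16 for the genes, and without fraction 12 they were 3.26 and 3.49.

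By end, fraction 12 held 57.2, 58.4 and 51.6% of the scaled reads of the proximal, middle and distal Col1a2 ends. The distal end held 14.9% in fraction 2.5, against 10.6% for the middle end. For Col3a1 fraction 12 held 51.5, 48.8 and 38.3%, but the proximal and distal ends had only 75 and 85 reads over the gradient. In fraction 12 the Col1a2 distal share of gene reads was 3.78% (3.46 to 4.13), and it ran from 3.98% to 5.97% in the other fractions. The pair model within libraries called 0.561% of 7489 pairs over the gradient. It called none of the 4 pairs of these genes at an adjusted p under 0.05. With all 6 fractions none had an unadjusted p under 0.05, with edgeR or with DESeq2. For the Col1a2 proximal end the unadjusted edgeR p was 0.0278 without fraction 12 and 0.0437 without fraction 2.5. Neither was called (edgeR adjusted p of 0.274 and 0.415). Per rank, the differences from the middle end were -0.10 ± 0.052 (Col1a2 proximal, 95% interval -0.22 to 0.012, edgeR adjusted p = 0.448) and -0.072 ± 0.061 (Col1a2 distal, -0.21 to 0.063, adjusted p = 0.703). For Col3a1 they were -0.11 ± 0.14 (proximal, -0.41 to 0.20, edgeR adjusted p = 0.851, but 0.066 without fraction 1) and -0.15 ± 0.12 (distal, -0.42 to 0.11, adjusted p = 0.676).

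Likeness to other loci was measured by Pearson's r of log2 scaled reads over the 12 libraries, among 10457 loci, as a description; the libraries share depth and scaling. The loci most like Col1a2 ended at chromosome 8 plus 95377317 (r = 0.994), chromosome 10 minus 77449695 to 77450651 (0.993) and chromosome 8 minus 87365989 to 87366289 (0.992). In these, 92.6, 97.8 and 81.3% of scaled reads were left at 8 h. The loci most like Col3a1 ended at chromosome 10 plus 75978600 (0.978), chromosome 2 plus 121134676 to 121136563 (0.975) and chromosome 15 plus 102154786 (0.974), with 16.9, 19.6 and 9.89% left. The 8 h library entered r, so likeness in the share left at 8 h is partly built into this choice of loci. Positions are mm9, and these loci are given without names. Between Col1a2 and Col3a1 r was 0.846, above that of Col1a2 with 96.1% of loci. This r spans the actinomycin D and gradient libraries together, and it does not mean like decay. At 8 h, 97.98% of Col1a2 and 16.1% of Col3a1 scaled reads were left.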

How the data were processed

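Raw read counts per poly(A) site were deposited by the authors for 12 2P-Seq libraries, at sites annotated from 3P-Seq in 3T3 and embryonic stem cells, per the file headers. Reads were aligned with Bowtie to mm9, per the submitters' processing notes. The file headers give the factor dividing each library. The authors' deposited half-life and ribosomes per mRNA are other derived values whose calculation the file headers do not state. The 2 libraries made by 3P-Seq were not analysed here.

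The members and lists were chosen with earlier results of these data known. Every site in both windows is named, and the 3 loci with the highest r for each gene. The lists of pathway genes and cell type markers could not be used, since no mm9 names were at hand. Positions were not converted between builds.

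Counts were fitted over all loci or ends with at least 60 counts in the 6 libraries, using edgeR 4.0.16 (R 4.3.3), quasi-likelihood F test with robust dispersion, Benjamini-Hochberg adjusted. The decay fit used the header factors and hours, with controls at 0. The gradient fit used TMM and the rank of the fraction. Pairs of ends were fitted with library effects, an isoform effect and its interaction with hours or rank. DESeq2 1.42.0, other scalings and count filters, and leaving out each library were the alternatives. Log ratios added 0.5 to each count. Column names do not say which of the 6 GEO fractions each is. Scripts were tested on simulated data.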

Additional observations from a re-analysis of the deposited data

How the results depend on the processing

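No paired analysis was possible because no label pairs a control with another library. The numbers of the gradient libraries are fraction numbers and not replicates, and controls and gradient enter no common fit. Every other group is a single library. With TMM and RLE scaling, which place the median locus at -0.035 and -0.022 per hour in place of -0.20, the Col1a2 slope was 0.16 and 0.18 and called (edgeR adjusted p of 9.38e-04 and 4.37e-04), and the Col1a2 middle end turned to 0.13 and 0.14. Falls and rises then numbered 3404 and 2543 loci (TMM) or 3200 and 2800 (RLE), against 6441 and 259. Header factors in the gradient gave 0.53 for Col1a2, 0.55 for Col3a1 and 0.45 for the Col1a2 proximal end, with 121 falls and 4476 rises against 542 and 59. For the Col1a2 distal end the decay difference was called against the sum of the other ends (-0.20, edgeR adjusted p = 0.0292) and by DESeq2 (-0.17, adjusted p = 0.0375), and pairs called numbered 184 lower and 325 higher with DESeq2 against 98 and 137. With edgeR and without the 8 h library, 8 pairs were called lower and 6 higher of 6140, against 98 and 137 of 6385. Without control 2, rises numbered 163 loci. Under the other gradient alternatives falls ran from 184 (without fraction 7.5) to 907 loci (without fraction 0) and rises from 10 to 472, with the same libraries left out. Ends called after actinomycin D ran from 4688 (RLE) to 10696 (no count filter) falls, against 8918, and from 280 (without 8 h) to 3740 (RLE) rises, against 459. The main and RLE fits tested 16913 ends, against 29645 without the count filter and 16521 without 8 h. These counts therefore cannot be compared as shares. Gradient pairs ran from 4 to 42 lower and from 1 to 30 higher, against 29 and 13. The 30 came from 11974 comparisons (each end against the sum of the others), against 7489 pairs in the main fit. The cause of these shifts was not tested. Ribosomes per mRNA were 6.36 (Col1a2) and 6.16 (Col3a1) by CPM, and ran from 3.26 to 9.01 and from 3.49 to 8.69 when each fraction was left out. The fall of Col3a1 was called under all 11 alternatives and its falling ratio to Col1a2 under all 7. The proximal and distal Col3a1 ends held 8 and 10 reads at 8 h. The direction of the Col3a1 proximal decay difference and of both gene slopes over the gradient changed when 1 library was left out, with ranges of -0.096 to 0.19, -0.45 to 0.32 (Col1a2) and -0.25 to 0.21 (Col3a1).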

Other observations

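The plus-strand Col3a1 ends face 4 ends on the minus strand of mm9 chromosome 1, at 45431469, 45432158, 45432632 and 45432659, between 24938 and 26128 nt past the distal Col3a1 end. In GRCm38 the next coding gene past Col3a1 is Col5a2, a fibrillar collagen gene on the minus strand 24615 nt away, but these mm9 ends were not assigned to a gene. The most used, at 45432632, held 4217 and 3991 control reads and 1101 at 8 h. Its slope was -0.21 per hour (edgeR adjusted p = 9.75e-05), and 34.5% of its scaled reads lay in fraction 12. The slopes of the other ends were -0.39, -0.12 and -0.24 (edgeR adjusted p of 2.11e-04, 0.0489 and 7.87e-05). Their half-lives in the authors' deposited table are 2.20, 3.33 and 2.84, against 2.87 at 45432632.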
